A study of Caenorhabditis elegans with 7 samples.

Results

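The protein turnover genes psme-4, lgmn-1, timp-1 and dap-1 were followed through 12 h of heat stress in adult Caenorhabditis elegans. They were found by gene number through the platform annotation, which names 7534 genes on 7900 of the 19200 probes. Each of the 4 genes had 1 probe, and each probe had a value on all 7 arrays. Their measured time courses on these arrays were known when they were chosen, so the levels and fitted changes of these 4 genes are given as a description, with no test.

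Animals of strain CF512, which are sterile when grown at 25 °C, were raised to adulthood at that temperature before a shift to 30 °C. Whole-animal total RNA was taken at 0 h (the baseline, before the shift) and after 2, 4, 6, 8, 10 and 12 h of heat, and each time has 1 array. Every array was hybridised against the same reference RNA, named HS1, of unstated make-up. Neither the alleles of CF512 nor the number of animals behind an RNA sample is stated in the labels, and all 7 samples share strain, growth temperature and reference. No animals kept at 25 °C for the same hours are among the samples. Hours of heat and the added age and time in culture therefore cannot be told apart. In whole animals, a change in the share of a tissue and a change of RNA per cell cannot be told apart either.

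Proteins are broken down along several routes. The proteasome degrades proteins of the cytosol and nucleus, while autophagy delivers cell contents to the lysosome, where proteases that work in acid digest them. Proteases released outside the cell cut the extracellular matrix and are held back by dedicated inhibitors. psme-4 encodes the relative of mammalian PA200, which caps the core particle of the proteasome and opens its gate. lgmn-1 encodes the relative of legumain, a lysosomal cysteine protease that cuts after asparagine. timp-1 encodes a relative of the tissue inhibitors of metalloproteases. dap-1 encodes the relative of mammalian death-associated protein 1, which in mammalian cells restrains autophagy.

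Values are log2 ratios of worm RNA to the reference, centred on the median of each array, so that 0 is the ratio of the middle probe. A ratio gives no absolute level and sets no order of abundance between genes. An array gave values for 16143 to 16972 probes, and no time had a replicate. The direction of the deposited ratio is not stated. Worm RNA over reference is taken as likely, because the heat-inducible HSP70 genes F44E5.4 and F44E5.5 were both at the lower limit of the file at 0 h (-4.98) but reached 0.91 and 0.83 by 2 h. With the sign turned, every higher below becomes lower. The log base is unstated too; base 2 fits the spread of the values and underlies every fold below. Of germline markers, 7 sperm (spe-) genes have a named probe and 3 of them were measured on all 7 arrays, but a ratio to a reference cannot show whether a transcript was absent.

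psme-4 had log2 ratios of -0.36 at 0 h, 0.11 at 2 h, 0.23 at 4 h, 0.40 at 6 h, 0.85 at 8 h, 0.90 at 10 h and 1.16 at 12 h. The proteasome activator was thus lowest at baseline and higher on each array than on the one before, in 6 of 6 intervals. Over all 13369 features measured on 7 arrays, 0.254% had 6 steps up. The gene was chosen with these values known, so nothing is read from that share. The difference between 12 h and 0 h was 1.52 log2 units, or 2.87-fold, and 30.9% of it was present by 2 h. Single steps were small, from 0.05 (8 to 10 h) to 0.47 (0 to 2 h). The standard deviation of such a step over all features lay between 0.52 and 0.68, so no single step of psme-4 stands out on its own. The fitted line over 0 to 12 h gave a change of 1.45 (SE 0.23, 7 arrays), and the arrays scattered about it with a residual SD of 0.104, against a median of 0.274 over all features. The line through the 6 heated arrays alone gave 1.10 over 2 to 12 h (SE 0.24), so the course of psme-4 did not rest on the baseline array.

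lgmn-1 had log2 ratios of 1.58 at 0 h, 0.33 at 2 h, -0.53 at 4 h, -0.33 at 6 h, -0.34 at 8 h, -1.15 at 10 h and -1.08 at 12 h. The lysosomal protease stood highest at baseline, was lower at 2 h and again at 4 h, stayed level between 4 and 8 h, and was lower once more on the last 2 arrays. The difference between 12 h and 0 h was -2.65, a 6.28-fold lower ratio, and 47.0% of it was present by 2 h. The step of -1.25 between 0 and 2 h was past -1 together with 6.87% of the features measured at both times. The line over 0 to 12 h gave -2.30 (SE 0.45) and the line over 2 to 12 h gave -1.27 (SE 0.34), with residual scatter of 0.478 about the first line. Its large steps fell in the intervals 0 to 2 h, 2 to 4 h (-0.86) and 8 to 10 h (-0.82), and the other steps were at most 0.20 in size.

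timp-1 had log2 ratios of 0.73 at 0 h, 0.41 at 2 h, -0.06 at 4 h, -0.04 at 6 h, -0.09 at 8 h, -0.52 at 10 h and -0.33 at 12 h. The metalloprotease inhibitor was highest at baseline and lowest at 10 h, as lgmn-1 was, with a level stretch between 4 and 8 h. Its range over the 7 arrays was 1.25 log2 units, against 2.73 for lgmn-1. The difference between 12 h and 0 h was -1.06, a 2.08-fold lower ratio, and 29.9% of it was present by 2 h. The line over 0 to 12 h gave -1.08 (SE 0.26) and the line over 2 to 12 h gave -0.73 (SE 0.26). Each single step of timp-1 was smaller than the standard deviation of that step over all features.

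dap-1 had log2 ratios of -1.86 at 0 h, 0.01 at 2 h, 0.09 at 4 h, 0.32 at 6 h, 0.50 at 8 h, 0.49 at 10 h and 0.74 at 12 h. The autophagy regulator stood far below all other times at baseline, met the middle of the array at 2 h and was higher from there, apart from a step of -0.01 between 8 and 10 h. The first interval gave 1.88 of the 2.60 log2 units between 0 and 12 h, which is 72.1%. A step above 1 in that interval was seen in 3.80% of the features. A straight line therefore described dap-1 poorly, with a change of 1.97 over 0 to 12 h (SE 0.52) and a residual SD of 0.565. Within 2 to 12 h the line gave 0.72 (SE 0.23), which is a 1.65-fold change, and extended to 12 h it is 0.86 in place of 1.97. The size of the dap-1 change thus rests on the single baseline array, while its direction was the same without it.

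**Figure D1:**
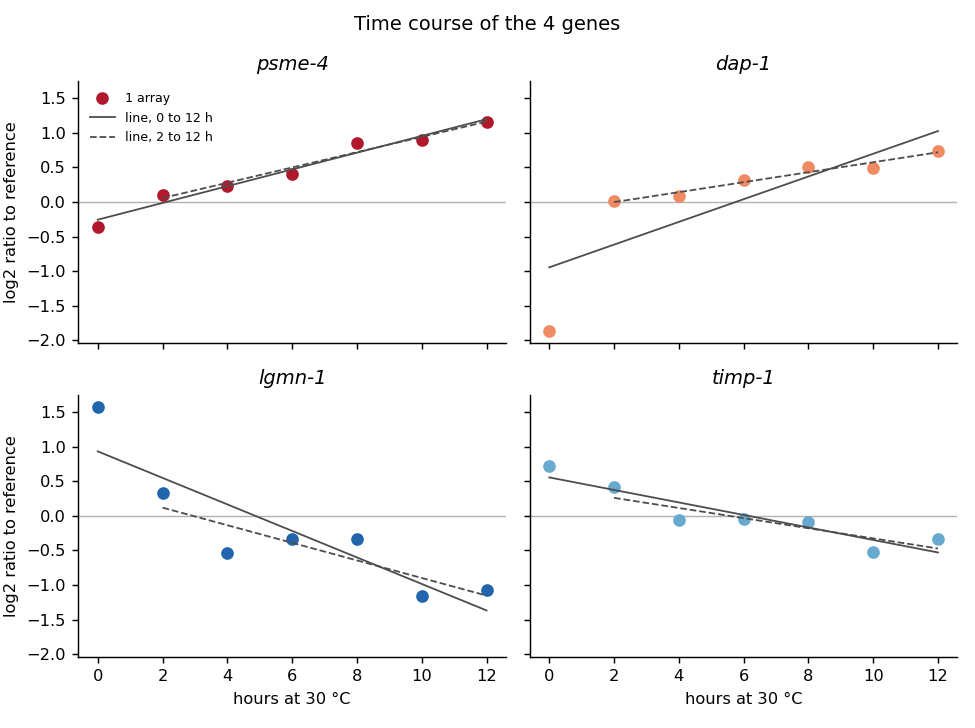
Log2 ratio to the reference (vertical axis) against hours at 30 °C (horizontal axis) for the 4 genes. Each point is 1 array, with no error of its own; solid lines are fitted to all 7 arrays and dashed lines to the 6 heated arrays. The dap-1 point at 0 h (-1.86) lies well below its solid line, while the psme-4 points keep close to theirs.

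Set against the other features of the same array, the genes moved across most of the range. psme-4 stood at percentile 21.4 at 0 h, 61.3 at 2 h, 86.8 at 6 h, 97.1 at 8 h and 98.8 at 12 h. dap-1 stood at percentile 0.875 at 0 h, 51.3 at 2 h and 95.4 at 12 h. lgmn-1 ran the other way, with percentile 98.7 at 0 h, 12.1 at 4 h and 4.57 at 12 h. timp-1 stood at percentile 90.1 at 0 h, 43.9 at 4 h and 24.5 at 12 h. Both genes that were low at baseline were above the middle of every heated array. lgmn-1 and timp-1 were above the middle at 0 and 2 h and below it from 4 h on.

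**Figure D2:**
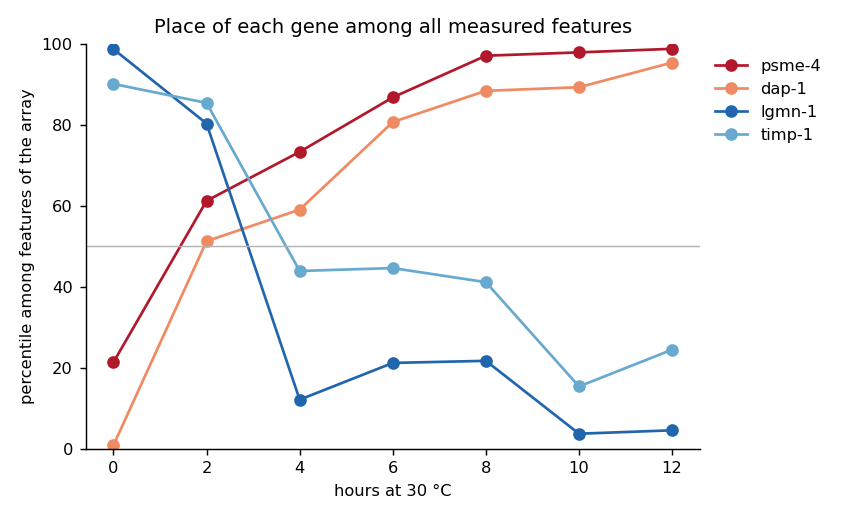
Percentile of each gene among all features measured on the same array (vertical axis) against hours at 30 °C (horizontal axis), with 1 array per point. psme-4 and dap-1 end at percentiles 98.8 and 95.4, and lgmn-1 and timp-1 at 4.57 and 24.5; the lines of the first pair cross those of the second between 2 and 4 h.

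The mean of the 6 heated arrays was set against the baseline array. The baseline is 1 array, so each SE and p of this comparison reflects only the spread of the heated arrays and assumes that the baseline varies like them. The 0 h array also had the widest spread of deposited values, with an SD of 0.634 against 0.497 to 0.585 on the heated arrays. Any error of the 0 h array enters the difference in full. psme-4 averaged 0.61 ± 0.42 on the heated arrays (SD, n = 6 different times), against -0.36 at baseline, a difference of 0.97 (SE 0.39). dap-1 averaged 0.36 ± 0.28, against -1.86, a difference of 2.22 (SE 0.30). lgmn-1 averaged -0.52 ± 0.55, against 1.58, a difference of -2.09 (SE 0.48). timp-1 averaged -0.11 ± 0.31, against 0.73, a difference of -0.83 (SE 0.32). For all 4 genes the baseline lay outside the range of the heated arrays. This is common in these data: the baseline lay below all heated arrays for 25.7% of the features and above all of them for 21.4%. The 4 genes were chosen on these values, so nothing is read from that count. Among all 13369 features, 82 had a difference above that of dap-1 and 129 one below that of lgmn-1. psme-4 and timp-1 lay less far out, with 502 features above and 1229 below.

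Within the heating period, the late arrays (8, 10 and 12 h) were compared with the early ones (2, 4 and 6 h). psme-4 averaged 0.97 ± 0.16 late and 0.25 ± 0.15 early (SD, n = 3 each), a difference of 0.72. dap-1 averaged 0.58 ± 0.14 late and 0.14 ± 0.16 early, a difference of 0.44. Late and early arrays did not overlap for these 2 genes, an order that 7.56% of the features showed. timp-1 averaged -0.31 ± 0.22 late and 0.10 ± 0.27 early, with no overlap either, although the highest late value (-0.09) and the lowest early one (-0.06) were nearly equal. That order was shown by 8.38% of the features. lgmn-1 averaged -0.86 ± 0.45 late and -0.18 ± 0.45 early, and these overlapped, since 8 h (-0.34) lay above 4 h (-0.53). Baseline, early and late arrays in order without overlap were found in 3.19% of the features upward, among them psme-4 and dap-1, and in 3.69% downward, among them timp-1. Here too the genes were chosen with these values known, so nothing is read from these shares.

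**Figure D3:**
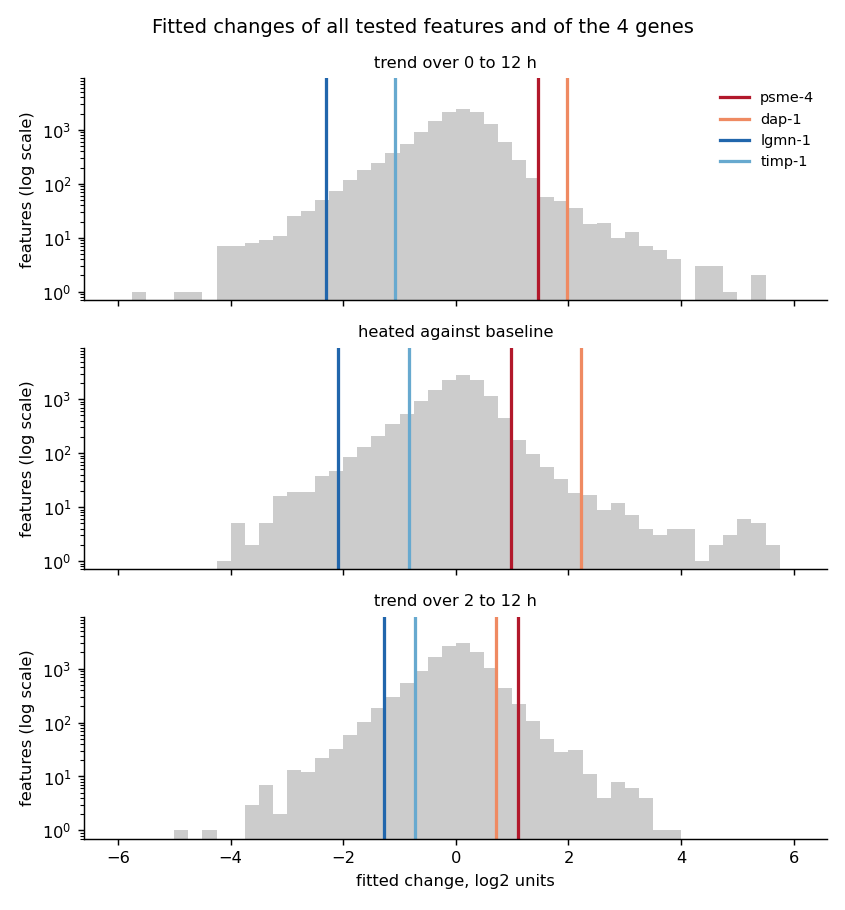
Number of features (vertical axis, log scale) by fitted change in log2 units (horizontal axis, bins of 0.25) for the trend over 0 to 12 h, the mean of the heated arrays minus the baseline, and the trend over 2 to 12 h; coloured lines mark the 4 genes. dap-1 lies at 1.97, 2.22 and 0.72 in the 3 panels and psme-4 at 1.45, 0.97 and 1.10, so their order turns when the baseline array is left out.

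The shapes of the 4 courses were compared after the mean of each over the 7 arrays was subtracted, by the root mean square (RMS) difference between them. lgmn-1 and timp-1 had a Pearson r of 0.98 over the 7 arrays, but differed in amplitude, with an RMS difference of 0.49 log2 units. Of 5314 other named genes, 2.82% were closer than timp-1 to lgmn-1, and 49.0% were closer than lgmn-1 to timp-1. psme-4 and dap-1 had an r of 0.87 and an RMS difference of 0.46, most of it from the baseline array. Of the other named genes, 28.2% were closer than dap-1 to psme-4, and 1.02% were closer than psme-4 to dap-1. Between a rising and a falling gene r was of similar size but negative, from -0.93 (dap-1 and lgmn-1) to -0.86 (dap-1 and timp-1). These values describe 7 arrays that share one reference RNA, and many genes move together over such a course.

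The named genes closest to each by RMS difference were looked up, again as a description. For psme-4 they were K08D9.5 (RMS difference 0.13), W04A8.6 (0.13) and C39B5.2 (0.15). The ratios of K08D9.5 were -0.95 at 0 h and 0.65 at 12 h, a span of about the size of that of psme-4 from a lower start. For dap-1 they were T05H4.t1 (0.19), C06B3.7 (0.19) and M01H9.3 (0.19), which stood between -2.16 and -1.80 at 0 h and between 0.22 and 0.56 at 12 h. For lgmn-1 they were R09F10.1 (0.16), kola-4 (0.17) and C25H3.10 (0.23), at 1.28 to 1.496 at 0 h and at -1.40 to -0.76 at 12 h. For timp-1 they were C18A11.1 (0.09), clik-2 (0.11) and ZC190.4 (0.12). Ranking by Pearson r in place of the RMS difference named 3 other genes for each, with 0 shared, so these neighbours in shape depend on whether amplitude counts. By that ranking C18A11.1 was the gene most like lgmn-1 (r = 0.99).

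In the WBcel235 gene table psme-4, lgmn-1 and timp-1 lie on chromosome V and dap-1 on another chromosome. The table was used for gene order alone, since no source used here names the build of the probes. dap-1 lies inside the span of T28F4.4, timp-1 overlaps K07C11.7 and lgmn-1 overlaps cal-1, which has no named probe here. psme-4 overlaps the antisense RNA gene C14C10.9, also without a named probe. The strand and the sequence of the probes were not used here, so how far overlapping genes share signal was not tested.

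T28F4.4, the gene that spans dap-1, had log2 ratios of -2.59 at 0 h, 0.53 at 2 h, 0.30 at 4 h, 0.30 at 6 h, -0.16 at 8 h, -0.19 at 10 h and -0.14 at 12 h. Like dap-1 it was far lower at baseline than at any later time. After 2 h the courses parted, with T28F4.4 lower and dap-1 higher at 12 h than at 2 h. On the mean of the heated arrays T28F4.4 rose by 2.69 log2 units (SE 0.32, limma adjusted p = 0.00654, with a baseline of 1 array). In that comparison 0.681% of all features passed as higher. Its change over 2 to 12 h was -0.75 (SE 0.25, limma adjusted p = 0.205), against 0.72 for dap-1. T28F4.3, on the far side of T28F4.4, also stood lowest at 0 h (-1.18) and between -0.36 and 0.14 on the heated arrays, but its difference of 1.04 did not pass (SE 0.26, limma adjusted p = 0.0873). On the other side of dap-1, C26C6.8 stood at -0.62 and C26C6.6 at -0.88 at 0 h, and both values lay within the heated range of the gene, with differences of 0.19 and 0.31.

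Beside timp-1 lies cest-17, of the carboxylesterase family, with no protein-coding gene between them. cest-17 had log2 ratios of 1.03 at 0 h, 0.42 at 2 h, -0.45 at 4 h, 0.09 at 6 h, -0.22 at 8 h, -0.76 at 10 h and -1.12 at 12 h. It was high on the same 2 first arrays as timp-1 and over 0 to 12 h fell by 1.84 (SE 0.35, limma adjusted p = 0.0210), where 3.63% of all features passed as lower. Without the 0 h array its change over 12 h was -1.53 and its adjusted p 0.131, and it also lost its call without the 2, 10 or 12 h array. K07C11.7, which overlaps timp-1, stood at 0.72 at 0 h, 0.575 at 2 h and -0.38 at 12 h, with a change of -0.82 (SE 0.36, limma adjusted p = 0.230). The other neighbours of timp-1, F20D6.11 (-0.36) and K07C11.8 (0.09), had smaller fitted changes.

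Of the measured neighbours of psme-4 and lgmn-1, C14C10.2, C14C10.1 and T28H10.2 shared the direction of the baseline difference, but not the later course. T28H10.1, near lgmn-1, shared both directions with it at a smaller size. Its difference from baseline was -0.20 (SE 0.30). Its change over 2 to 12 h was -0.53 (SE 0.29, limma adjusted p = 0.464). C14C10.2 and C14C10.1, on one side of psme-4, were lowest at 0 h (-0.38 and -0.75), but at 12 h they stood at -0.03 and -0.09, where psme-4 stood at 1.16. ZC116.1, on the other side, stood at 0.29 at 0 h and -0.33 at 12 h. T28H10.2, next to lgmn-1, stood at 0.64 at 0 h and between -0.24 and 0.18 later, and T28H10.1 between -0.15 and 0.58 throughout. None of these 5 genes passed in any limma fit, where at most 1.72% of all features passed as higher and 3.63% as lower. Against the baseline, C14C10.1 (0.80) and T28H10.2 (-0.68) had an unadjusted limma p under 0.05, as did 17.6% of all features. cubn-1, dyf-4 and F45D3.1 were measured on 5, 2 and 3 arrays.

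**Figure D4:**
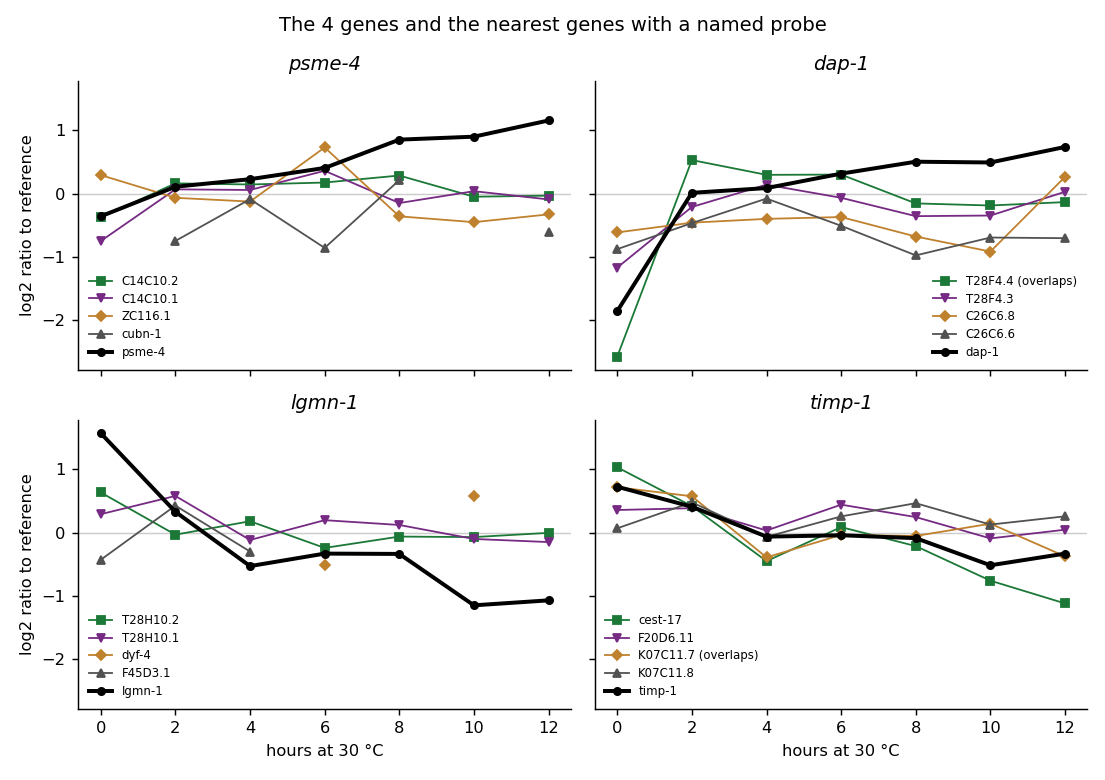
Log2 ratio to the reference (vertical axis) against hours at 30 °C (horizontal axis) for each of the 4 genes (thick black line) and the nearest 2 genes on either side that have a named probe (thin lines; breaks are missing values). T28F4.4 shares the low baseline of dap-1 but lies below it from 6 h on, and cest-17 shares the high start of timp-1.

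Other genes of protein turnover were taken from 8 lists built on gene symbols. Only 34 of their genes besides the 4 have a named probe, and 28 of these were measured on all 7 arrays, so the lists sample each route thinly. Over 0 to 12 h 0 of the 28 rose, 2 fell and 26 did not pass, where 1.72% of all 13369 features passed as higher and 3.63% as lower. Their median change was -0.19, against 0.04 over all features. Against the baseline 0 rose, 2 fell and 26 did not pass, where 0.681% and 0.957% of all features passed. The median was -0.07, against 0.05. Over 2 to 12 h none of the 28 passed with limma, while 1.16% of all 13478 features did. At an unadjusted p under 0.05 there were 3 of the 28 in that fit, against 14.6% of all features. Over 0 to 12 h there were 10 of the 28, against 21%, and against the baseline 9 of the 28, against 17.6%. Serine proteases and peptidases made up 8 of these 10 and 7 of these 9.

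Within the proteasome, the list held 1 measured gene besides psme-4. rpn-13, for a ubiquitin receptor of the regulatory particle, had log2 ratios of 0.11 at 0 h, 0.22 at 2 h, 0.40 at 4 h, 0.26 at 6 h, 0.21 at 8 h, 0.00 at 10 h and -0.01 at 12 h. Its highest value was at 4 h, and the 12 h value was close to baseline, with a change of -0.21 over 0 to 12 h (SE 0.24, limma adjusted p = 0.653). In contrast to psme-4, no steady course was seen in it. The difference between the 2 genes was not tested. Of the ubiquitin genes, rnf-126, for a RING-type ligase, had a change of -0.17, and usp-4, for a deubiquitinating enzyme, one of 0.90 (SE 0.56), with a single high ratio of 1.73 at 8 h. Neither passed.

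In the list of cysteine and aspartic proteases, which includes lgmn-1, 3 other genes were measured on all arrays. In the limma fits 0 of the 3 passed, where at most 1.72% of all features passed as higher and 3.63% as lower. At an unadjusted p under 0.05 there was 1 (cpr-9 over 0 to 12 h), where 21% of all features were. cpr-9, of the cathepsin B family, stood at 0.20 at 0 h and -0.56 at 12 h, and its change of -0.73 had SE 0.24 (limma adjusted p = 0.117). clp-9, of the calpain family, had a change of -0.35. csp-3, a caspase-like gene that also stands for the cell death list, had one of 0.70 (SE 0.32, limma adjusted p = 0.251). lgmn-1, at -2.30, lay outside the range of these 3.

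The lists' calls all came from serine proteases and peptidases, of which 12 were measured on all arrays. Over 0 to 12 h 0 of the 12 rose and 2 fell, where 1.72% of all features passed as higher and 3.63% as lower. At an unadjusted p under 0.05 there were 8 of the 12, against 21% of all features. Their median change was -1.15, against 0.04 over all features, and 10 of 12 were below 0. In 7 of the 12 the baseline lay above all heated arrays, as it did for lgmn-1 and timp-1, against 21.4% of all features. Over 2 to 12 h, 3 of the 12 had an unadjusted limma p under 0.05, against 14.6% of all features. The lists were chosen with earlier results of these data known. The 12 include 5 ctsa and 5 try genes, which are related and not independent, so these shares are a description only.

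ctsa-2, of the cathepsin A family of lysosomal serine carboxypeptidases, had log2 ratios of 1.695 at 0 h, -1.19 at 2 h, -0.81 at 4 h, -1.25 at 6 h, -1.03 at 8 h, -1.04 at 10 h and -1.54 at 12 h. It was high on the baseline array alone and stayed near its 2 h level, a step of -2.88, where lgmn-1 went on to lower values. On the mean of the heated arrays it fell by 2.84 log2 units (SE 0.28, limma adjusted p = 0.00278, with a baseline of 1 array). The call held in all 16 alternatives, but none of them leaves out or replaces the 0 h array on which the difference rests, and over 2 to 12 h the change was -0.32 (SE 0.30, limma adjusted p = 0.688). ctsa-3.1, of the same family, stood at 1.10 at 0 h, 0.42 at 2 h, -0.64 at 4 h, -0.47 at 6 h, -0.65 at 8 h, -0.54 at 10 h and -1.32 at 12 h. Its course resembled that of lgmn-1 in its first 3 arrays, and over 0 to 12 h it fell by 1.97 (SE 0.40, limma adjusted p = 0.0260). That call was lost without the 0, 2, 8 or 12 h array and with quantile normalization, with changes of -2.22 to -1.47 and adjusted p up to 0.159 over the 16. ctsa-3.2, ctsa-1.2 and ctsa-1.1 had changes of -1.53, -0.92 and -0.04 and did not pass.

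The Lon proteases, which degrade proteins inside organelles, had fitted changes of opposite sign. lonp-2, for the peroxisomal enzyme, had log2 ratios of 1.32 at 0 h, -0.655 at 2 h, -0.26 at 4 h, -1.25 at 6 h, -0.97 at 8 h, -1.11 at 10 h and -1.59 at 12 h. On the mean of the heated arrays it fell by 2.30 (SE 0.42, limma adjusted p = 0.0369, with a baseline of 1 array), and over 0 to 12 h it fell by 2.22 (SE 0.54, limma adjusted p = 0.0478). Of 16 alternatives, 7 ended the first call (changes of -2.55 to -1.88 and adjusted p up to 0.116 over the 16), among them leaving out the 6, 8 or 10 h array. The second was ended by 9 (changes of -2.67 to -1.19, adjusted p up to 0.216), among them leaving out any array other than the 2 h one. lonp-1, for the mitochondrial enzyme, stood at -0.36 at 0 h and 0.50 at 12 h, with a change of 0.91 (SE 0.25, limma adjusted p = 0.0701), upward like psme-4 but not past the threshold. Of the 5 trypsin-like try genes measured on all arrays, 0 passed. Against the baseline, 0.681% of all features passed as higher and 0.957% as lower. try-11 and try-12 stood at 0.78 and 1.41 at 0 h and between -1.75 and 0.26 afterwards, with changes against the baseline of -1.65 and -1.67 (limma adjusted p = 0.108 and 0.0849). The other changes against the baseline were -0.60 for try-13, -0.22 for try-16 and 0.41 for try-15.

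The autophagy and lysosome list, which bears on dap-1 and lgmn-1, held 9 genes measured on all arrays. In the limma fits 0 of the 9 rose and 0 fell, where at most 1.72% of all features passed as higher and 3.63% as lower. At an unadjusted p under 0.05 there was 1 of 9 over 0 to 12 h, against 21% of all features, and 2 of 9 against the baseline, against 17.6%. Of the 9, 5 are wdr genes, chosen by their prefix and not known as autophagy genes, and vps-72 is named for a sorting defect in yeast but encodes a chromatin remodelling subunit. The largest change was that of vps-13A, for a lipid transfer protein, at 1.02 (SE 0.35, limma adjusted p = 0.138), with -0.93 at 0 h and between -0.44 and 0.345 later. vps-13D and vps-8 had changes of 0.34 and 0.05. The list median was 0.34 over 0 to 12 h and 0.25 against the baseline, where the medians of all features were 0.04 and 0.05. With the wdr genes and vps-72 in the list, its median does not describe autophagy genes alone. Of protease inhibitors besides timp-1, the only listed gene was ddn-2 (change of -0.47), whose role as an inhibitor is not known here, and the metalloprotease list held adt-3, measured on 3 arrays. No other gene named psme-, dap-, dapk-, lgmn- or timp-, nor cri-2, has a named probe here, so paralogues were not analysed.

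**Figure D5:**
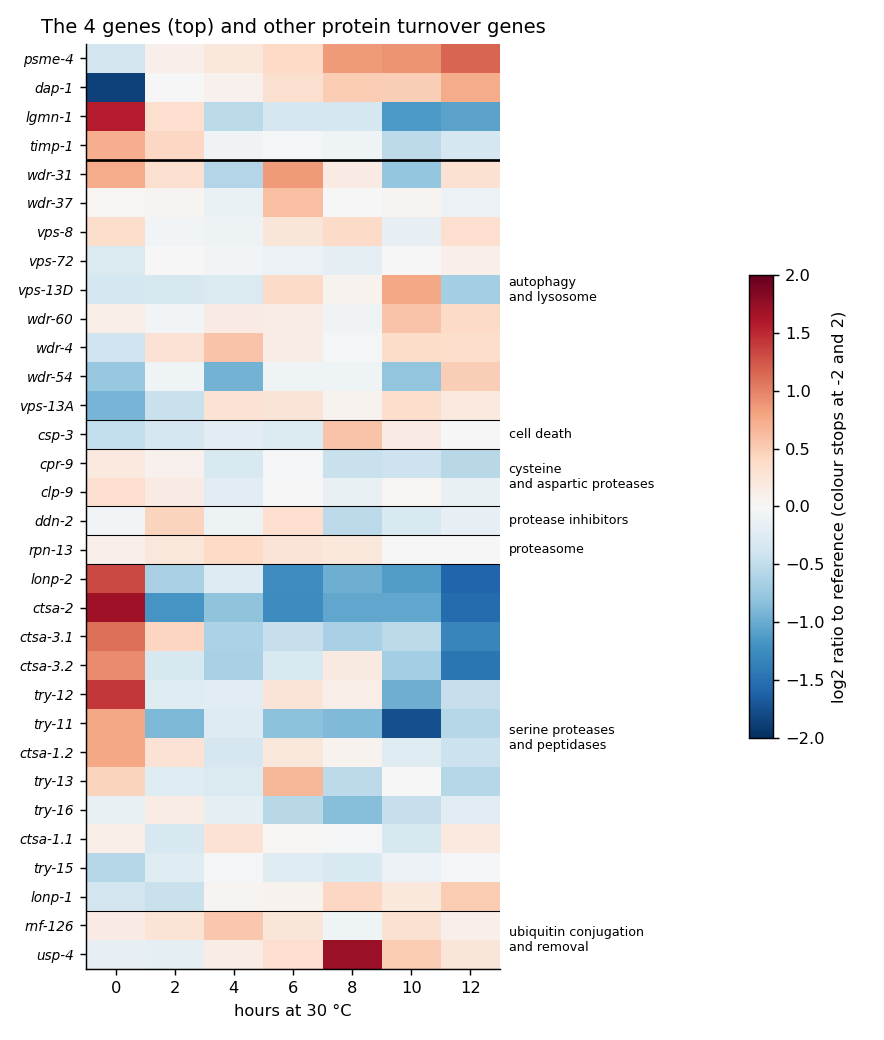
Log2 ratio to the reference (colour, from -2 in blue to 2 in red) by hours at 30 °C (columns, 1 array each) for the 4 genes (top rows) and 28 other protein turnover genes measured on all arrays (rows, grouped by list and ordered by trend; csp-3 belongs to the cell death and cysteine protease lists). Red at 0 h followed mostly by blue is seen in lgmn-1, lonp-2, ctsa-2 and ctsa-3.1, but also in try-11, ctsa-3.2 and others. The reverse is seen in psme-4, dap-1 and vps-13A, among others.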

How the data were processed

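The deposited table holds 1 log ratio per probe and array, taken as log2 from its range; column names are sample accessions. Per the labels, channel 2 is the reference HS1. No label or header names the scanner, the background correction, the normalization or why cells are blank. The deposited log2 values stop at -5 and 5 (65 of 19200 probes reach a limit, none of the 4 genes). Spot intensities were not analysed here, so signal over background is unknown. Precision is limited by having 7 arrays.

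Each array was centred on its median. Of 7900 named probes, 7872 matched the WBcel235 gene table by gene number; probes of 1 gene were averaged. Linear models were fitted with limma 3.58.1 in R 4.3.3 (lmFit, eBayes) over all features measured on every array of a comparison. Benjamini-Hochberg adjustment was used with a threshold of 0.05. The fits were also run on simulated data with independent normal noise on every array. Such data cannot check the effect of ordered times, a curved course or a 0 h array of wider spread. With 1 array per time, the error is the spread about the fitted line or the heated mean. The 4 genes and the lists were chosen with earlier results of these data known. Named genes are the 4, up to 4 called genes per list and comparison, the 3 closest in shape, the nearest 2 on each side, and F44E5.4 and F44E5.5; list genes that did not pass were added after their values were seen. Alternatives covered centring, scaling, missing values, probes, the variance prior, limits, time scale and left-out arrays.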

Additional observations from a re-analysis of the deposited data

How the results depend on the processing

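No paired analysis was possible because there is only 1 array a time. Centring within the 32 print blocks was chosen after seeing the data. No fitted change of the 4 genes turned its sign in any alternative, and for psme-4 and timp-1 every alternative stayed within 1 SE of the value given. With each array left out in turn, the change over 0 to 12 h ran between 0.86 and 2.35 for dap-1 and between -2.65 and -1.52 for lgmn-1, with the smaller sizes without the 0 h array. The numbers of features that passed (higher, then lower) moved more, and the cause was not tested beyond fewer arrays or more features in some fits. For the trend over 0 to 12 h, given as 230 and 485, quantile normalization gave 154 higher and 260 lower, scaling to equal spread 144 and 338, tolerance of 2 missing arrays 151 and 393, and a log2 time scale 394 and 707, while leaving out single arrays gave counts of 51 to 188 on the higher side and 105 to 426 on the lower. For heated against baseline, given as 91 and 128, quantile normalization gave 47 higher and 41 lower, scaling to equal spread 44 and 60, the 2 to 6 h arrays 45 and 48, and the 8 to 12 h arrays 140 and 289, and fits short of one heated array gave counts of 46 to 158 against 64 to 273. For the trend over 2 to 12 h, given as 51 and 105, quantile normalization gave 44 higher and 57 lower and tolerance of 2 missing arrays 20 and 43, and fits short of one array gave counts of 0 to 38 against 0 to 59, with no call at all without the 2 h array. The protein turnover lists had 2 lower genes over 0 to 12 h. Quantile normalization gave 0, scaling to equal spread 1 and tolerance of missing arrays 1, and left-out arrays gave 0 to 1. The log2 time scale gave 3 lower and 1 higher. Against the baseline 2 were lower. Quantile normalization, scaling to equal spread and tolerance of missing arrays each gave 1, as did the 2 to 6 h arrays. Left-out arrays gave 1 to 3 lower and 0 to 1 higher.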
